A study of Mus musculus with 16 samples.

Results

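TRBV26 is the mouse beta V segment that older serology called Vβ3. Cells with exactly 1 TRB chain carrying TRBV26 and with 1 or 2 TRA chains were taken from 8 single-cell T cell receptor libraries. They were 2086 of 38108 cells that passed the same chain rule, and 1580 clonotypes, each a receptor of 1 library with the same V, J and CDR3 nucleotides in TRB and in the TRA with most UMIs. Inside them, 2 combinations had been selected on their number of clonotypes in these same libraries. The TRAJ37 pair is TRBV26 with TRBJ2-7 and TRAJ37 (94 cells, 54 clonotypes), and the TRAJ23 pair is TRBV26 with TRBJ2-7 and TRAJ23 (42 cells, 22 clonotypes). The other TRBV26 cells numbered 1950, in 1504 clonotypes. The combinations ranked first and second among all TRBV26 combinations of TRBJ and TRAJ; just outside them stood TRBJ2-7 with TRAJ31 (19 clonotypes) and with TRAJ27 (16 clonotypes). That ranking chose the pairs and is given without a test.

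The libraries hold CD44high CD4+ T cells sorted from mouse spleen on day 18 after a Vk12653 multiple myeloma graft on day 0. All mice also received an NK1.1-depleting antibody (50 µg on days -2 and 5), and then either an antibody to 4-1BB, a co-stimulatory receptor of activated T cells, or control IgG (20 µg on days 10, 13 and 16). Each of 2 experiments has 1 library for each of 4 groups: KO with anti-4-1BB, KO with IgG, WT with anti-4-1BB and WT with IgG. The gene deleted in KO cells is Eomes, a T-box transcription factor of cytotoxic and memory T cells. KO mice were Eomesfl/fl-ERT2CD4Cre in experiment 2 and Eomesfl/fl-CD4Cre in experiment 1, and WT mice were Eomes-IRES-GFP in both. CD4Cre is expressed in T cells from the Cd4 promoter, and the ERT2 form needs tamoxifen to act. In experiment 2 all mice, WT included, received tamoxifen. In KO the experiment, the Cre and tamoxifen therefore cannot be told apart, and in WT the experiment and tamoxifen cannot. KO and WT mice also differed in line, so the loss of Eomes cannot be told apart from the Cre and the reporter. The labels do not say that a library is 1 animal or that libraries come from separate animals. The p-values therefore measure no more than the spread between these libraries. For edgeR's tests of segment combinations that spread was pooled over all combinations tested. Only receptor contigs were used here, so neither the loss of Eomes nor CD4 expression was checked.

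A T cell builds each receptor chain by joining V, (D) and J gene segments, with bases trimmed and added at the joints. The joint encodes CDR3, the loop that contacts the presented peptide. Different joints can encode the same residues, and a CDR3 that is found again in unrelated cells or animals is called public or shared. In mouse, Vβ3 has long been studied because superantigens of mouse mammary tumour viruses and of bacteria act on T cells through it, and because many T cells specific for cytochrome c carry it.

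The CDR3β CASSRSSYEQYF carried more of the TRAJ37 pair than any other (21 of 54 clonotypes, 49 of 94 cells) and was encoded in 9 ways over all TRBV26 cells. Those versions are shown because the same residues were read from different bases. Several differ by 1 base, and whether each is a joining event of its own or a base error was not tested. Each reads 5′ to 3′ over 36 bases, from the first cysteine codon to the last phenylalanine codon, and capitals mark the 6 positions that vary among them.
beta version 1: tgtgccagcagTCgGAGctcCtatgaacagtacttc
beta version 2: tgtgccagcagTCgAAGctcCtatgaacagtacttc
beta version 3: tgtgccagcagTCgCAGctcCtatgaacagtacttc
beta version 4: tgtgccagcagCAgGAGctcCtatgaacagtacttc
beta version 5: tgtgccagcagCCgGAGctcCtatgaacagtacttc
beta version 6: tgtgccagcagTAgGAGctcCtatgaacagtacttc
beta version 7: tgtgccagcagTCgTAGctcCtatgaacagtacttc
beta version 8: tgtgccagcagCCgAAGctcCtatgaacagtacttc
beta version 9: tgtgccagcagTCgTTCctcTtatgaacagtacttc

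Version 1 was in 10 clonotypes and 48 cells of 3 libraries, version 2 in 7 clonotypes and 11 cells of 4 libraries, and version 3 in 5 clonotypes and 17 cells of 4 libraries. Version 4 was in 3 clonotypes and 4 cells of 3 libraries, and versions 5 to 9 were each in 1 library, with 1 or 2 clonotypes. Of these, version 5 held 24 cells in 2 clonotypes. All 33 clonotypes used TRBJ2-7, and versions 1 to 4 were each found in more than 1 library.

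Several other 12-residue CDR3β sequences of the TRAJ37 pair were found in 2 or more libraries. One version of each is shown beside version 1 of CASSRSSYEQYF, with capitals at the 9 positions that differ among the 4. They share the start given by the V segment and the end given by TRBJ2-7.
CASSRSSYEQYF: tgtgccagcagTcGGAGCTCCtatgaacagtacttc
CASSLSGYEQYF: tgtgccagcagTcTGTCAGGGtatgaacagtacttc
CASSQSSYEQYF: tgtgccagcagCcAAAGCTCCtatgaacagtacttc
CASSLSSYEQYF: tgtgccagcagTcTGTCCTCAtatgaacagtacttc

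The alpha chains found with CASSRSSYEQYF used several TRAJ but mostly one V family. One CDR3α is shown for each of 4 TRAJ, all in lower case, with 39 bases each.
TRAV13-1 TRAJ37 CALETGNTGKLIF: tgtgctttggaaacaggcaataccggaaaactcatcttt
TRAV13-1 TRAJ34 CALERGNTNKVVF: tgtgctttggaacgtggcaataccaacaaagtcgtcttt
TRAV13D-1 TRAJ23 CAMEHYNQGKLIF: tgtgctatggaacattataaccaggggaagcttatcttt
TRAV13-1 TRAJ27 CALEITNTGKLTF: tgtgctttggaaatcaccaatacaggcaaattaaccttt

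In GRCm38.p6 the RefSeq annotation places TRBV26 at chr6:41227525-41227913 and TRBJ2-7 at chr6:41543810-41543856, and TRAJ37 at chr14:54181518-54181577 and TRAJ23 at chr14:54196081-54196140. TRAV13-1 lies at chr14:53545014-53545525 and TRAV12-2 at chr14:53616397-53616914. TRAV13-1, TRAV13D-1 and TRAV13N-1 are near copies, so single TRAV names within that family are uncertain and the family is counted as well.

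The libraries held 2656 to 8871 cells under the chain rule, 8039901 to 15045635 reads and 80551 to 445027 UMIs on receptor contigs. The median TRB UMI count per cell was 9 to 14 in TRBV26 cells and 10 to 18 in cells with other TRBV, by library. Between 35 and 245 cell barcodes were shared by 2 libraries in the 28 library pairs, and 0 of them had the same TRB CDR3 nucleotides in both. Receptors of invariant NKT cells (TRAV11 or TRAV11D with TRAJ18) were in 1 of 2086 TRBV26 cells (0.0479%) and in 223 of 36022 cells with other TRBV (0.619%). Receptors of mucosal-associated invariant T cells (TRAV1 with TRAJ33) were in 0 TRBV26 cells, which allows up to 0.144%, and in 4 cells with other TRBV. Such limits for counts of 0, here and below, are 3 divided by the number of cells or contigs. One library stood apart for the recurrent receptors: KO with anti-4-1BB in experiment 2 held 48 of the 94 TRAJ37 pair cells and 79 of the 113 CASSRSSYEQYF cells.

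TRBV26 was a segment of middle rank whose share of cells did not differ between treatments or genotypes beyond the spread of the libraries. In experiment 2 it was in 6.50% of cells in KO with anti-4-1BB, 6.53% in KO with IgG, 5.88% in WT with anti-4-1BB and 5.02% in WT with IgG. In experiment 1 it was in 4.74% of cells in KO with anti-4-1BB, 5.02% in KO with IgG, 4.67% in WT with anti-4-1BB and 5.27% in WT with IgG. In experiment 2 both KO libraries and WT with anti-4-1BB lay above all libraries of experiment 1. By group the share averaged 5.62 ± 1.24% in KO with anti-4-1BB, 5.77 ± 1.06% in KO with IgG, 5.27 ± 0.858% in WT with anti-4-1BB and 5.15 ± 0.178% in WT with IgG (SD, n = 2 each).

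The share was 5.45% under anti-4-1BB and 5.46% under IgG, a difference of -0.0138 ± 0.627 percentage points (SD over 4 combinations of experiment and genotype; 1 of 4 higher; two-sided exact permutation p = 0.875, adjusted 0.875). Within experiment 2 the mean difference was 0.415, and within experiment 1 it was -0.443. KO libraries averaged 5.70% and WT libraries 5.21%, a difference of 0.487 ± 0.767 points (3 of 4 higher; exact permutation p = 0.375), with 1.06 in experiment 2 and -0.0879 in experiment 1. Experiment 2 averaged 5.98% and experiment 1 4.93%, a difference of 1.06 ± 0.899 points (3 of 4 higher; exact permutation p = 0.25). With 4 such combinations the smallest p this exact test can give is 0.125. The exact p-values were adjusted over 14 tests by the Benjamini-Hochberg method, and the lowest adjusted value among them was 0.109.

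Counting each clonotype once gave the same picture. TRBV26 ranked eighth of 22 segments by its mean share of clonotypes, 5.26 ± 0.472% (SD over 8 libraries, range 4.51 to 5.70%), next to TRBV16 at 5.31% and TRBV5 at 5.13%, differences smaller than its own spread. In edgeR's quasi-likelihood test the log2 ratio of TRBV26 clonotypes was -0.09 ± 0.13 for anti-4-1BB over IgG (SE, adjusted p = 0.706) and 0.05 ± 0.13 for KO over WT (adjusted p = 0.997). The treatment effect in KO minus that in WT was -0.05 ± 0.26 (adjusted p = 0.925), and the ratio of experiment 2 over experiment 1 was 0.14 ± 0.12 (adjusted p = 0.546). edgeR called 0 of 22 segments (0%) in each of these comparisons. At an unadjusted p under 0.05 there were 2 segments for treatment, 0 for genotype, 1 for the difference of treatment effects and 1 for experiment, and DESeq2 called 1, 0, 0 and 1. The median log2 ratio of the 22 segments was itself -0.11 for treatment and 0.13 for experiment. Over the 8 libraries the clonotype shares that followed TRBV26 most closely were those of TRBV16 (Spearman's rho 0.71), TRBV1 and TRBV10 (both 0.60, level with TRBV13-1). These values share library and depth and are a description only.

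The TRAJ37 pair was rare in experiment 1 and more frequent in every group of experiment 2. In experiment 2 it made up 48 of 4907 cells in KO with anti-4-1BB (0.978%, 95% exact Clopper-Pearson interval 0.722 to 1.29%), 12 of 5991 in KO with IgG (0.200%), 11 of 4439 in WT with anti-4-1BB (0.248%) and 17 of 4459 in WT with IgG (0.381%). In experiment 1 it made up 3 of 2656 cells in KO with anti-4-1BB (0.113%), 0 of 2728 in KO with IgG, 0 of 8871 in WT with anti-4-1BB and 3 of 4057 in WT with IgG (0.0739%). The counts of 0 allow shares of up to 0.110% in KO with IgG and 0.0338% in WT with anti-4-1BB. Their Clopper-Pearson intervals reach 0.135% and 0.0416%. All 4 libraries of experiment 2 lay above all 4 of experiment 1. Intervals and these limits cover counting error only.

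Over the 4 groups the TRAJ37 pair averaged 0.452% of cells in experiment 2 and 0.0467% in experiment 1, a difference of 0.405 ± 0.310 points (4 of 4 higher; exact permutation p = 0.125, the smallest this test can give). Leaving out KO with anti-4-1BB of experiment 2 gave a difference of 0.252. Among 642 combinations of TRBV, TRBJ and TRAJ with 10 or more clonotypes, edgeR gave this one a log2 ratio of 3.12 ± 0.75 for experiment 2 over experiment 1 (SE, adjusted p = 0.0205; without the filter on low counts, adjusted p = 0.490). It was the 1 combination of 642 called (0.156%); 33 had an unadjusted p under 0.05, and DESeq2 called 0. The combination was chosen on these same counts and passed the filter through experiment 2 (49 clonotypes, against 5 in experiment 1). The ratio is therefore a description and the call supports nothing. Its SE and p-value also used a spread pooled over the combinations tested, not that of this combination alone. The adjusted p was also under 0.05 when KO with anti-4-1BB of experiment 2 was left out (log2 ratio 3.81, adjusted p = 0.0338). It was above 0.05 when clonotypes of 1 library within 1 base of each other were counted once (2.87, adjusted p = 0.0559), in DESeq2 (3.49, adjusted p = 0.284) and when any 1 of the other 7 libraries was left out (adjusted p up to 0.608).

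Neither treatment nor genotype separated the TRAJ37 pair. By group it averaged 0.546 ± 0.612% in KO with anti-4-1BB, 0.100 ± 0.142% in KO with IgG, 0.124 ± 0.175% in WT with anti-4-1BB and 0.228 ± 0.217% in WT with IgG (SD, n = 2 each). Anti-4-1BB libraries averaged 0.335% and IgG libraries 0.164%, a difference of 0.171 ± 0.418 points (2 of 4 higher; exact permutation p = 0.75), with 0.322 in experiment 2 and 0.0195 in experiment 1. KO libraries averaged 0.323% and WT libraries 0.176%, a difference of 0.147 ± 0.407 points (2 of 4 higher; exact permutation p = 0.75), with 0.275 in experiment 2 and 0.0195 in experiment 1. Both signs rested on 1 library: without KO with anti-4-1BB of experiment 2 the differences were -0.0315 and -0.0473. For clonotypes of the combination, edgeR's log2 ratio was 0.25 ± 0.88 for anti-4-1BB over IgG (adjusted p = 0.994) and 0.62 ± 0.83 for KO over WT (adjusted p = 0.997). edgeR called 0 of 642 combinations (0%) in both comparisons, with 33 and 19 at an unadjusted p under 0.05, and DESeq2 called 0 in both.

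The TRAJ23 pair was found in 4, 10, 11 and 10 cells of experiment 2, in the order KO with anti-4-1BB, KO with IgG, WT with anti-4-1BB and WT with IgG (0.0815%, 0.167%, 0.248% and 0.224%). In the same order it was found in 4, 0, 1 and 2 cells of experiment 1 (0.151%, 0%, 0.0113% and 0.0493%). The experiments overlapped, since KO with anti-4-1BB of experiment 1 lay above the same group of experiment 2. The difference between experiments was 0.127 ± 0.135 points (3 of 4 higher; exact permutation p = 0.25), between anti-4-1BB and IgG 0.0127 ± 0.102 (p = 0.875 by the same exact test) and between KO and WT -0.0334 ± 0.127 (p = 0.625, exact). In edgeR the log2 ratio of its clonotypes was -0.26 ± 0.74 for anti-4-1BB over IgG, 0.34 ± 0.75 for KO over WT and 1.00 ± 0.80 for experiment 2 over experiment 1 (adjusted p = 0.994, 0.997 and 0.976).

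**Figure D1:**
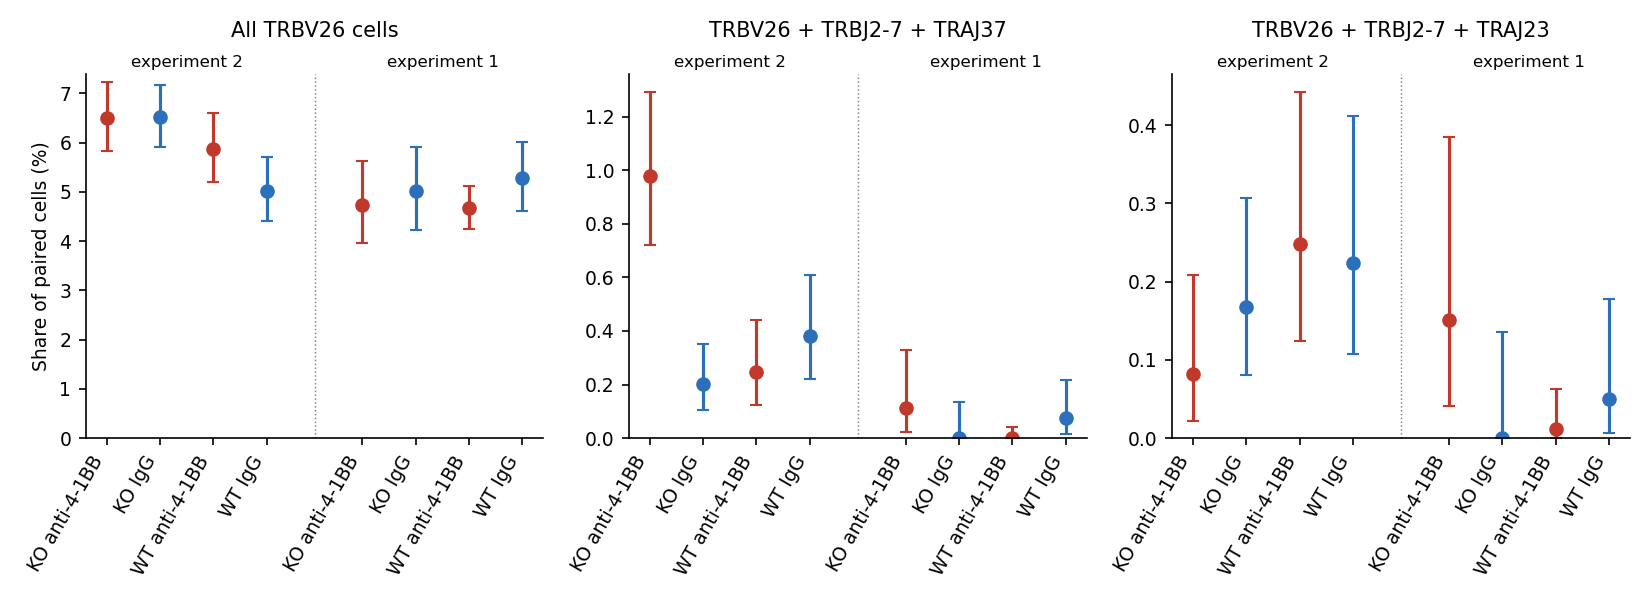
Share of cells under the chain rule (percent, linear axes) with TRBV26, with the TRAJ37 pair and with the TRAJ23 pair, by library; points are libraries (red anti-4-1BB, blue IgG) and bars are 95% exact binomial intervals. The TRAJ37 pair reaches 0.978% in KO with anti-4-1BB of experiment 2, against 0 to 0.113% in the libraries of experiment 1.

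J segment use is given over all 1580 TRBV26 clonotypes, both pairs included. TRBJ2-7 was in 19.4% of TRBV26 clonotypes and 18.3% of those with other TRBV, TRBJ2-5 in 13.3% and 14.5%, TRBJ1-1 in 10.6% and 9.0%, TRBJ2-3 in 8.99% and 9.56%, and TRBJ2-4 in 8.48% and 10.6%. On the alpha side TRAJ37 led, in 7.59% of TRBV26 clonotypes against 4.77% of the others. TRAJ31 was in 6.14% and 6.67%, TRAJ23 in 5.13% and 4.88%, TRAJ22 in 4.43% and 4.69%, and TRAJ34 in 4.24% and 3.59%.

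TRAJ37 was used more often with TRBJ2-7 than with the other TRBJ taken as one set. Among TRBV26 clonotypes with TRBJ2-7, 54 of 306 had TRAJ37 (17.6%, interval 13.5 to 22.4%). With TRBV26 and another TRBJ it was 66 of 1274 (5.18%), and with TRBJ2-7 and another TRBV 272 of 5293 (5.14%). By experiment the share at TRBV26 with TRBJ2-7 was 49 of 179 (27.4%) in experiment 2 and 5 of 127 (3.94%) in experiment 1, so in experiment 1 it did not exceed the shares of the other receptors. Both of these TRAJ37 shares lay outside the pooled interval, which covers counting error only. TRAJ23 was in 15 of 179 (8.38%) and 7 of 127 (5.51%). These values chose the pairs in part and carry no test.

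The alpha chains of the TRAJ37 pair fell into separate groups by their V segment. TRAV13-1 was in 32 of 54 clonotypes (59.3%), against 4 of 66 clonotypes with TRBV26, TRAJ37 and another TRBJ (6.06%) and 75 of 1379 clonotypes with TRAJ37 and another TRBV (5.44%). TRAV12-2 was in 13 of 54 (24.1%), against 17 of 66 (25.8%) with another TRBJ and 35 of 1379 (2.54%) with another TRBV. TRAV13-1 was thus frequent together with TRBJ2-7, whereas TRAV12-2 had a like share with the other TRBJ of TRBV26. In the TRAJ23 pair TRAV13-1 was in 6 of 22 clonotypes (27.3%), TRAV13D-1 in 3 (13.6%) and TRAV13N-1 in 3 (13.6%). The whole TRAV13 family was in 34 of 54 clonotypes of the TRAJ37 pair (63.0%) and 13 of 22 of the TRAJ23 pair (59.1%). With the same TRAJ and another TRBV it was in 12.7% for TRAJ37 and 11.3% for TRAJ23. These groups were read from the sequences after their values were seen and are a description.

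**Figure D2:**
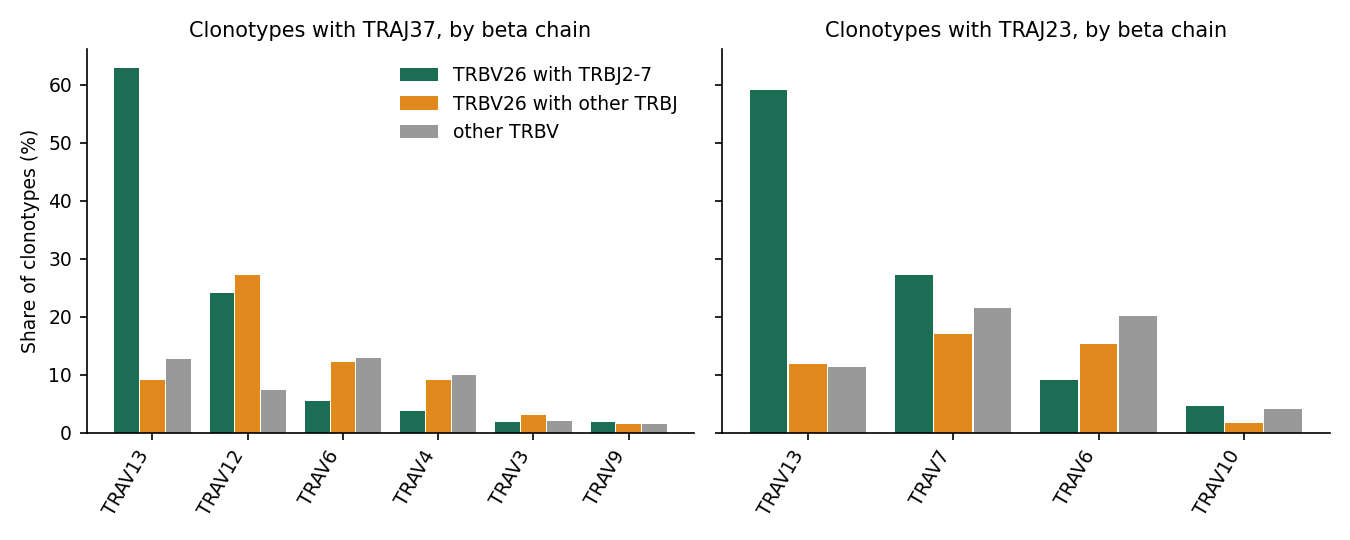
Share of clonotypes (percent) by alpha V family in the TRAJ37 pair and the TRAJ23 pair, beside clonotypes with the same TRAJ and TRBV26 but another TRBJ, and with the same TRAJ and another TRBV. The TRAV13 family takes 63.0% of the TRAJ37 pair and 59.1% of the TRAJ23 pair.

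The TRAV13 group of the TRAJ37 pair came from experiment 2 but for 1 cell. It numbered 41 cells in 15 clonotypes in KO with anti-4-1BB, 6 in 5 in KO with IgG, 11 in 7 in WT with anti-4-1BB and 11 in 6 in WT with IgG of experiment 2, and 1 cell of KO with anti-4-1BB in experiment 1. All 34 of its clonotypes had a CDR3β of 12 residues and a CDR3α of 13, and 26 of the CDR3β ended in SYEQYF. Counted from 1 at the first cysteine, the CDR3α had glutamate at position 4 in 33 of 34 and glycine at position 6 in 32 of 34. Position 5 between them took 10 different residues, threonine in 9 clonotypes, alanine in 6 and serine in 4. In the TRAJ23 pair the 13 TRAV13 clonotypes had glutamate at position 4 in 12 and tyrosine at position 6 in 12, with histidine or leucine at position 5 in 5 clonotypes each. All 13 were from experiment 2, whereas 0 of the 7 TRAJ23 pair clonotypes of experiment 1 used the family. How far the residues at positions 4 and 6 are given by the V and J segments that define these groups was not tested. Alphas found with other TRBV were not compared at these positions.

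Pooled over libraries, clonotypes of 2 or more cells held 57 of 94 cells of the TRAJ37 pair (60.6%), 29 of 42 of the TRAJ23 pair (69.0%) and 610 of 1950 other TRBV26 cells (31.3%), and 36 of the 57 were from KO with anti-4-1BB of experiment 2. Within that library the share was 75% for the TRAJ37 pair and 43.4% for the other TRBV26 cells. In KO with IgG of experiment 2 the order was the reverse, 33.3% for the pair and 38.5% for the others. It was 63.6% and 51.0% in WT with anti-4-1BB and 47.1% and 22.3% in WT with IgG of that experiment. For the TRAJ23 pair the shares in experiment 2 were 4 of 4, 8 of 10, 10 of 11 and 7 of 10 cells, in the order KO with anti-4-1BB, KO with IgG, WT with anti-4-1BB and WT with IgG. In experiment 1 they were 2 of 6 cells for the TRAJ37 pair and 0 of 7 for the TRAJ23 pair. These differences were not tested. Of the 17 expanded clonotypes in the TRAJ37 pair, 14 had a TRAV13 alpha and 3 had TRAV12-2. The largest clonotype of the TRAJ37 pair in experiment 2 had 10 cells in KO with anti-4-1BB, 2 in KO with IgG, 3 in WT with anti-4-1BB and 4 in WT with IgG. The KO anti-4-1BB library had 20 clonotypes of the TRAJ37 pair, or 12 when those within 1 base of each other were counted once. In the other libraries with the pair that count was 10 and 9 in KO with IgG and unchanged elsewhere.

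Both pairs were made of many different sequences. The TRAJ37 pair held 23 CDR3β and 30 CDR3α amino acid sequences, encoded in 38 and 41 ways, and 40 combinations of both. Of these combinations 6 were in 2 or more libraries. The TRAJ23 pair held 18 CDR3β and 17 CDR3α sequences in 19 combinations, of which 0 were in 2 or more libraries. The other TRBV26 clonotypes held 1487 combinations, of which 10 were in 2 or more libraries.

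Over all TRBV26 cells, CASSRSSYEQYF was in 33 clonotypes and 113 cells, with 16 different CDR3α. Of these clonotypes 30 had a TRAV13 family alpha (90.9%), against 201 of the 1547 other TRBV26 clonotypes (13.0%). The TRAJ was more mixed: 21 clonotypes had TRAJ37 (49 cells), 6 had TRAJ34 (46 cells), 3 had TRAJ23 (9 cells) and 1 each had TRAJ27 (7 cells), TRAJ31 and TRAJ9. The paired receptor of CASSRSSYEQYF with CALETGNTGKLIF was in 3 libraries, in 7 clonotypes with 4 beta and 2 alpha nucleotide versions. With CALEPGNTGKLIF it was in 3 libraries and 12 cells, and with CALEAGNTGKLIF (11 cells), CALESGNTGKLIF (5 cells) and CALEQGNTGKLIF (4 cells) in 2 libraries each. The TRAJ34 receptor with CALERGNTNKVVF was in 2 libraries and 45 cells, and 2 of its clonotypes, of 23 and 15 cells in KO with anti-4-1BB of experiment 2, were among the 5 largest of all TRBV26. With TRAJ23, the CDR3α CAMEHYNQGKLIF was assigned to TRAV13D-1 in 4 cells of KO with IgG and to TRAV13N-1 in 5 cells of WT with anti-4-1BB. With clonotypes of 1 library within 1 base counted once, the 33 clonotypes were 23, and the 16 in KO with anti-4-1BB of experiment 2 were 7.

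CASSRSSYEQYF was found in all 4 libraries of experiment 2 and in none of experiment 1. In experiment 2 it was in 79 cells of KO with anti-4-1BB (1.61%, interval 1.28 to 2.0%), 11 of KO with IgG (0.184%), 18 of WT with anti-4-1BB (0.405%) and 5 of WT with IgG (0.112%). In experiment 1 it was in 0 of 18312 cells, which allows up to 0.0164%. In cells, both anti-4-1BB libraries of experiment 2 lay above both IgG libraries. The CDR3 was in 16 clonotypes of KO with anti-4-1BB and 8 of KO with IgG. WT with anti-4-1BB had 5 and WT with IgG 4, so that order did not hold over clonotypes. This CDR3 was picked after its values were seen and gets no test. In KO with anti-4-1BB 34 of the 79 cells had TRAJ37 and 44 had TRAJ34; in WT with anti-4-1BB 6 of 18 had TRAJ37, 7 had TRAJ27 and 5 had TRAJ23.

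**Figure D3:**
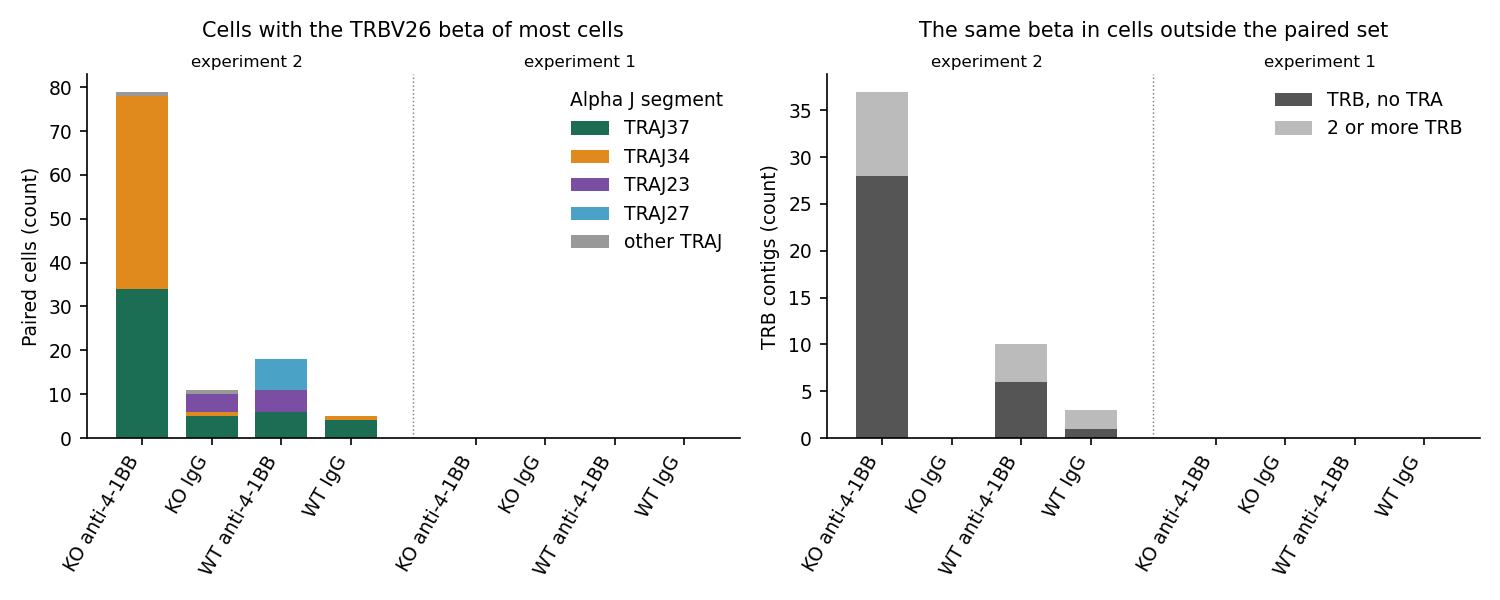
Number of cells under the chain rule with the TRBV26 CDR3β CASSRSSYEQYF, by library and TRAJ of the alpha chain (left), and number of TRB contigs with it in cells outside that rule, which had TRB with no TRA or more than 1 TRB (right). KO with anti-4-1BB of experiment 2 stands at 79 cells, the other libraries of experiment 2 at 5 to 18 and the libraries of experiment 1 at 0.

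A similar CDR3β, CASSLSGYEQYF, was in 14 clonotypes and 39 cells of 5 libraries, with 8 nucleotide versions and 12 different CDR3α. In experiment 2 it was in 18 cells of KO with anti-4-1BB, 10 of KO with IgG, 1 of WT with anti-4-1BB and 9 of WT with IgG. In experiment 1 it was in 1 cell, of KO with anti-4-1BB, so its presence in that experiment rests on that cell. In the TRAJ37 pair it was in 7 clonotypes of 3 libraries with 5 nucleotide versions, and in the TRAJ23 pair in 2 clonotypes and 7 cells. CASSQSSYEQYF was in 4 TRAJ37 pair clonotypes of 2 libraries, each with its own nucleotide version. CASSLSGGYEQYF and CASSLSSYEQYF were in 2 clonotypes each of that pair, and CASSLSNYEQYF in 2 of the TRAJ23 pair.

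Taking every TRAJ together, a TRBV26 and TRBJ2-7 beta of 12 residues with a TRAV13 family alpha was in 61 clonotypes and 175 cells. In experiment 2 these were 91 cells in KO with anti-4-1BB, 24 in KO with IgG, 29 in WT with anti-4-1BB and 24 in WT with IgG. In experiment 1 they were 1, 0, 6 and 0 cells in the same order. By TRAJ the clonotypes were 34 with TRAJ37, 11 with TRAJ23, 6 with TRAJ27, 5 with TRAJ34 and 3 with TRAJ52, and 1 each with TRAJ21 and TRAJ31. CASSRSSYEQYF gave 30 of the 61 clonotypes and 110 of the 175 cells. This class was set after its values were seen, so its counts by experiment are a description and get no test.

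The second alpha group, TRAV12-2 with TRAJ37, was spread over both experiments and over many betas. It was in 30 of 1580 TRBV26 clonotypes (1.90%) and in 35 of 28909 clonotypes with other TRBV (0.121%). In experiment 2 its share of TRBV26 clonotypes was 2.01% in KO with anti-4-1BB, 2.57% in KO with IgG, 1.90% in WT with anti-4-1BB and 2.69% in WT with IgG, against 0.240%, 0.0889%, 0.113% and 0.0576% of clonotypes with other TRBV. In experiment 1 it was 3.64%, 2.40%, 0.585% and 1.06% of TRBV26 clonotypes in the same order, against 0.0438%, 0.0458%, 0.166% and 0.124% with other TRBV. TRBV26 lay above the other TRBV in each of the 8 libraries. The combination was singled out after its values were seen, so it has no test.

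The 30 clonotypes had 30 different CDR3β and 8 different TRBJ, and 26 were single cells. Their CDR3α were much alike: 28 of 30 were of 13 residues (93.3%), against 7 of 35 (20%) with other TRBV, and all 30 ended in TGNTGKLIF, against 21 of 35. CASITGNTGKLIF was in 9 clonotypes of 6 libraries, with 9 different CDR3β and 4 TRBJ. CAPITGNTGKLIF was in 4 clonotypes of 4 libraries. In each of 2 further sequences, found in 3 clonotypes of 3 libraries, the isoleucine was glycine or serine. The versions with most clonotypes are shown because this CDR3α recurred with many different TRBV26 betas, whereas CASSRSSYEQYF recurred with many alphas. Capitals are not used here.
TRAV12-2 TRAJ37 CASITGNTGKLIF: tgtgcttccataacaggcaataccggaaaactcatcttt
TRAV12-2 TRAJ37 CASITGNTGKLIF, another version: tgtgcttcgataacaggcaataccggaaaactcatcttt
TRAV12-2 TRAJ37 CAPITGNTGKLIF: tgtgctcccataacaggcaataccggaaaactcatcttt

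**Figure D4:**
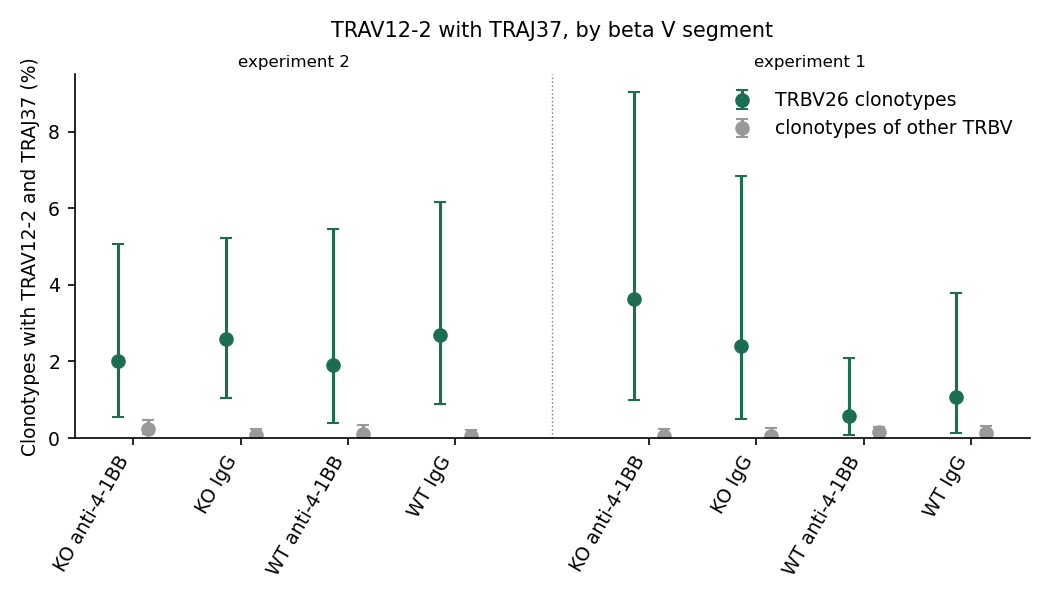
Share of clonotypes (percent) that carry TRAV12-2 with TRAJ37 among TRBV26 clonotypes and among clonotypes of other TRBV, by library; bars are 95% exact binomial intervals. TRBV26 points lie at 0.585 to 3.64% and the other points at 0.0438 to 0.240%.

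CDR3β of TRBV26 was somewhat short, and that of the TRAJ37 pair shorter still. The mean length over TRBV26 clonotypes was 13.4 residues in KO with anti-4-1BB, 13.5 in KO with IgG, 13.5 in WT with anti-4-1BB and 13.4 in WT with IgG of experiment 2, and 13.5, 13.7, 13.6 and 13.6 in experiment 1. Averaged over libraries it was 13.5 residues for TRBV26 and 13.8 for other TRBV, a difference of -0.249 ± 0.0834 (lower in 8 of 8 libraries; exact permutation p = 0.0078125, the smallest possible; adjusted 0.109). The TRAJ37 pair averaged 12.2 residues and the other TRBV26 clonotypes 13.6, a difference of -1.34 ± 0.781 (lower in 6 of 6 libraries; exact permutation p = 0.03125, the smallest possible; adjusted 0.146). The TRAJ23 pair averaged 12.5 residues and the other TRBV26 clonotypes 13.6, a difference of -1.04 ± 0.900 (lower in 6 of 7 libraries; exact permutation p = 0.03125, adjusted 0.146). No difference passed after adjustment, and part of these gaps went with TRBJ2-7 itself. Against other TRBV26 clonotypes with TRBJ2-7 the TRAJ37 pair differed by -0.609 ± 0.633 residues (lower in 5 of 6 libraries; exact permutation p = 0.0625) and the TRAJ23 pair by -0.343 ± 0.919 (lower in 4 of 7; exact permutation p = 0.453). Libraries counted equally, though some held few clonotypes of a pair. Against other TRBV26 clonotypes of any TRBJ, the largest TRAJ37 pair difference, -2.59, came from 3 clonotypes in KO with anti-4-1BB of experiment 1. The largest TRAJ23 pair difference, -2.56, came from 1 clonotype in WT with anti-4-1BB of experiment 1.

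Within TRBJ2-7 the make-up of CDR3β differed by pair. A length of 12 residues was found in 74.1% of the TRAJ37 pair, 59.1% of the TRAJ23 pair, 31.3% of the other TRBV26 clonotypes with TRBJ2-7 and 21.1% of clonotypes with TRBJ2-7 and other TRBV. An ending in YEQYF was found in 90.7%, 77.3%, 59.6% and 66.5% of the same sets. Serine at position 6 was in 66.7%, 45.5%, 21.7% and 4.87%, and arginine at position 5 in 44.4%, 22.7%, 14.3% and 6.82%. Leucine at position 5 was in 38.9%, 50%, 61.7% and 21.3%. These shares count clonotypes over all libraries, and most clonotypes of the TRAJ37 pair came from experiment 2. The recurrent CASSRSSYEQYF has all of these features except leucine at position 5. It made up 21 of the 54 TRAJ37 pair clonotypes, 3 of the 22 of the TRAJ23 pair and 9 of the 230 other TRBV26 clonotypes with TRBJ2-7. The shares in part count that sequence again and were not tested.

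**Figure D5:**
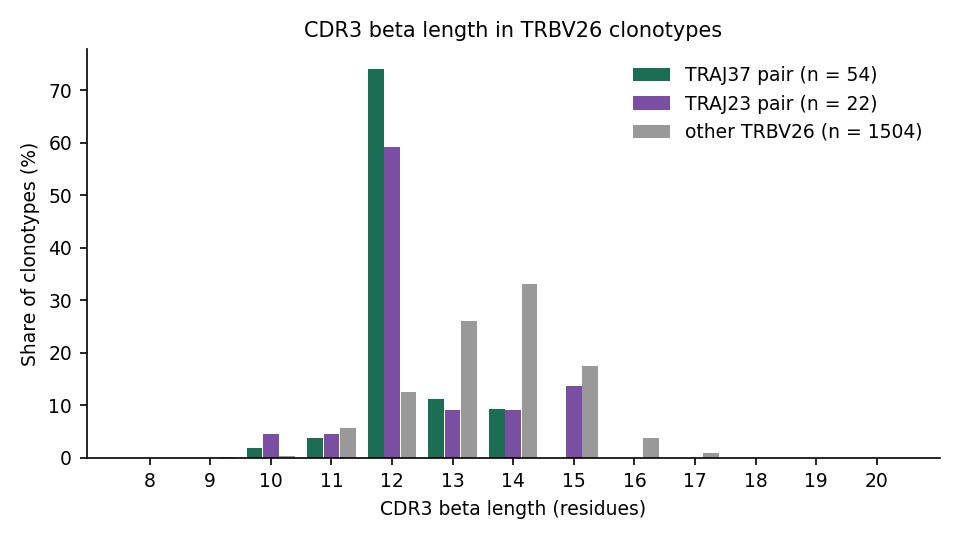
Distribution of CDR3β length (residues) as a percentage of clonotypes in the TRAJ37 pair, the TRAJ23 pair and all other TRBV26 clonotypes, whatever their TRBJ. Clonotypes of 12 residues make up 74.1%, 59.1% and 12.5% of these sets.

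For TRBV26 cells as a whole, clone size did not differ from that of other TRBV beyond the spread of the libraries. After each library was thinned to 2656 cells, expanded clonotypes held 42.0% of TRBV26 cells in KO with anti-4-1BB, 32.1% in KO with IgG, 45.9% in WT with anti-4-1BB and 20.3% in WT with IgG of experiment 2, against 30.2%, 20.3%, 41.1% and 21.4% of cells with other TRBV. In experiment 1 they held 20.6%, 16.4%, 15.3% and 15.2% of TRBV26 cells in the same order, against 16.3%, 22.8%, 11.7% and 19.5%. The mean was 26% for TRBV26 and 22.9% for other TRBV, a difference of 3.07 ± 6.73 points (higher in 5 of 8 libraries; exact permutation p = 0.234, adjusted 0.5). Cells with 2 TRA chains were 5.38% of TRBV26 cells and 5.81% of cells with other TRBV (difference -0.422 ± 1.31, exact permutation p = 0.391). The largest TRBV26 clonotype had 29 cells, in KO with IgG of experiment 2, with TRBJ1-2, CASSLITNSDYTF and TRAV6N-7; one of 20 cells in WT with anti-4-1BB of experiment 1 had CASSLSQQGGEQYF and TRAV7-3. Another of the 5 largest, of 15 cells in WT with anti-4-1BB of experiment 2, had TRBJ1-3, TRAV7-5 and TRAJ26.

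Identity of whole receptors between libraries was more frequent for TRBV26 at the amino acid level. Of 1550 paired CDR3 amino acid receptors of TRBV26, 16 were in 2 or more libraries (1.03%), against 129 of 28599 with other TRBV (0.451%). At the nucleotide level the shares were 2 of 1578 (0.127%) and 31 of 28877 (0.107%). The TRAJ37 pair, which was selected on its number of clonotypes, gave 6 of the 16, so these shares have no test.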

How the data were processed

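Contig annotations of 8 T cell receptor libraries were used as deposited. Per the submitters' processing notes, Cell Ranger 7.1.0, bcl2fastq 2.20.0, Seurat and GRCm38 were used; the V(D)J reference is not given in the sources used here. The deposited contigs carry counts of UMIs and reads. The files held 123611 contigs, of which 0 were not productive. Cells with more than 1 TRB, TRB only or more than 2 TRA stayed out; this is the only filter on doublets. Members, lists and alternatives were chosen with earlier results of these data known. Named segments were the 5 TRBJ and 5 TRAJ most used, TRAV with 10% or more of a pair, the CDR3 in most libraries and the 5 largest clonotypes. Cell shares were compared by exact permutation inside strata or over libraries (scipy 1.17.1). Clonotypes per TRBV (10 or more in at least 2 libraries) or per TRBV-TRBJ-TRAJ combination (10 or more in all) were tested with edgeR 4.0.16 with Benjamini-Hochberg adjustment, and DESeq2 1.42.0 as an alternative, on counts of clonotypes derived here; code was tested on simulated data. The labels mark the experiments as batches, which pairs the libraries; deviations over 22 segments correlated at -0.449 to 0.771 between groups. Sequences come from the deposited contigs and segment positions from RefSeq.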

Additional observations from a re-analysis of the deposited data

Results flagged for a closer look

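The effect of anti-4-1BB on the share of the TRAJ37 pair ran in opposite directions by genotype. Anti-4-1BB minus IgG was 0.445 percentage points in KO (0.778 in experiment 2 and 0.113 in experiment 1) and -0.104 in WT (-0.133 and -0.0739). The same shares compared by genotype gave KO minus WT of 0.422 points under anti-4-1BB (0.730 and 0.113) and -0.127 under IgG (-0.181 and -0.0739). This is the same pattern arranged another way and not a second observation. Each contrast was above 0 in both experiments for the one group and below 0 in both for the other. These differences between groups were not tested, and in experiment 1 they rest on counts of 0 to 3 cells. In experiment 2 the values above 0 all come from 1 library, KO with anti-4-1BB, with 48 cells. With clonotypes within 1 base counted once, that library had 12 clonotypes of the pair, as did WT with IgG of experiment 2.

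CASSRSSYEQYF with TRBV26, the CDR3β with most TRBV26 cells, was also found in cells outside the chain rule (TRB only, or more than 1 TRB). There it made up 0.592% of the TRB contigs in KO with anti-4-1BB of experiment 2 and 0.182% in WT with anti-4-1BB, against 0 of 5350 in KO with IgG and 0.0648% in WT with IgG. In experiment 1 it was in 0 of 14740 such contigs, which allows up to 0.0204%.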

How the results depend on the processing

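Of 308 alternative values for 24 results, 242 kept their direction and side of the threshold, 26 kept only their direction and 40 changed sign. None of the results with a changed sign had passed a threshold in the values reported above. The settings on cells outside the chain rule, on clonotypes within 1 base and on TRBJ2-7 alone were chosen after seeing the data.

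The TRAJ37 combination was chosen on these same counts, so an adjusted p under 0.05 in any setting below supports nothing. Its higher clonotype count in experiment 2 (log2 3.12) also had such a value with TMM scaling (3.21, edgeR adjusted p = 0.00399). It was not past the threshold in DESeq2 (3.49), without the filter on low counts (3.12, adjusted p = 0.490), over cells (3.71, adjusted p = 0.701), with 3 or more UMIs per chain (3.07, adjusted p = 0.0645) or with near-identical clonotypes merged (2.87). Without the filter more combinations enter both the fit and the adjustment. The cause was not tested for any of these settings. Against TRBV26 clonotypes with TRBJ2-7 the length differences, -0.609 for the TRAJ37 pair and -0.343 for the TRAJ23 pair, were no longer under 0.05.

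Signs turned in these cases, with the cause not tested: the TRBV26 share for anti-4-1BB minus IgG with 3 or more UMIs (0.0711), and for KO minus WT in cells outside the chain rule (-0.209). They also turned for the TRAJ23 pair share for KO minus WT over clonotypes (0.00337). In DESeq2 they turned for TRBV26 clonotypes by treatment (0.0186), for the difference of its treatment effects (0.0019, and 0.0243 with 3 or more UMIs) and for the TRAJ23 combination by treatment (0.0192, and 0.0752 over cells). Over cells the TRAJ23 combination gave -0.35 for KO over WT, and with near-identical clonotypes merged the TRAJ37 combination gave -0.0029 by treatment.

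Leaving out 1 library at a time moved the TRBV26 share difference within -0.304 to 0.184 for treatment, 0.148 to 0.734 for genotype and 0.822 to 1.49 for experiment. For the TRAJ37 pair the ranges were -0.0315 to 0.272, -0.0473 to 0.256 and 0.252 to 0.473, and for the TRAJ23 pair -0.0333 to 0.0454, -0.0910 to 0.0109 and 0.0909 to 0.193, in the same order. The expanded share ranged over 1.82 to 4.42, the share with 2 TRA over -0.688 to -0.191, and length over -0.262 to -0.227 for TRBV26, -1.58 to -1.09 for the TRAJ37 pair and -1.22 to -0.786 for the TRAJ23 pair. With 1 library fewer, the exact test of the TRAJ37 pair length cannot go below 0.0625. The log2 ratio of TRBV26 clonotypes ranged over -0.17 to -0.02 for treatment, -0.0307 to 0.13 for genotype, -0.21 to 0.11 for the difference of treatment effects and 0.08 to 0.23 for experiment. The TRAJ37 combination ranged over -2.24 to 2.86, -2.00 to 3.11 and 2.54 to 3.82, and the TRAJ23 combination over -1.01 to 1.92, -1.84 to 1.09 and 0.52 to 2.17. Where this left a group with 1 library, that library was assumed to vary like the others. The edgeR fits for treatment and genotype held no term for experiment. Leaving out 1 library therefore also left the experiments unbalanced in those contrasts.

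With the experiment as a replicate block, the log2 ratio of TRBV26 clonotypes was -0.10 for treatment, 0.04 for genotype and -0.05 for the difference of treatment effects. The TRAJ37 combination gave 0.40 and 0.46, and the TRAJ23 combination -0.10 and 0.23, for treatment and genotype. The block changed no call. Counts of 0 to 11 cells per library limit both pairs in experiment 1 and the TRAJ23 pair throughout.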

Other observations

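Among the TRBV26 receptors in neither pair, the CDR3β found in the most libraries after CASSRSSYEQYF and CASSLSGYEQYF were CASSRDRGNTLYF (4 clonotypes), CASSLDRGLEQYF (3 clonotypes) and 1 of 15 residues not spelled out here (3 clonotypes), each in 3 libraries and in both experiments. A paired receptor outside TRBJ2-7, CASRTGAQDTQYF with TRAV14-2 and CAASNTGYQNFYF, was in 1 library of each experiment, with 10 cells in all, 1 beta version and 2 alpha nucleotide versions. The other 7 clonotypes of the TRAJ37 pair, with neither TRAV13 family nor TRAV12-2 alphas, were all single cells.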
